A study of Mus musculus with 6 samples.

Results

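The nuclear-encoded genes of oxidative phosphorylation were followed by RNA sequencing in neural progenitor cells (NPC), in Phc1-KO cells and in mouse embryonic stem cells (ESC). Members were taken by symbol: Nduf genes with the letters a, b, c, s or v and a number (complex I), Sdha to Sdhd (complex II), Uqcr genes (complex III), Cox4 to Cox8 genes (complex IV) and Atp5 genes (complex V). Ndufa4l2 and names with -ps were left out. This gave 86 of the 37620 genes in the tables. Of these, 81 encode subunits: 36 of complex I, 4 of complex II, 8 of complex III, 18 of complex IV and 15 of complex V. The other 5 only share the naming pattern. They are a second gene model of Ndufb8, the pseudogene Atp5l2, Cox4nb (a subunit of an endoplasmic reticulum membrane complex, now called Emc8), Atp5s and Atp5sl (now called Dmac2). Ndufa4 is kept here under complex I by its symbol, although the protein is now assigned to complex IV.

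NPC were wild type and were derived in culture from the J1 line of ESC. Phc1-KO cells carried the genotype Phc1-/- and also came from J1. ESC were wild-type J1 cells, grown with LIF and serum on mitomycin-C-inactivated fibroblast feeders and separated from them before use. Each group had 2 libraries, which the labels call biological replicates, so n = 2 throughout. Whether the libraries of a pair came from separate cultures is not stated, and p-values then measure only the spread between these libraries.

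Oxidative phosphorylation takes place in the inner mitochondrial membrane. Complexes I and II feed electrons from NADH and succinate to ubiquinone, complex III passes them to cytochrome c and complex IV to oxygen. The proton gradient built by complexes I, III and IV drives ATP synthesis by complex V. Complexes I, III, IV and V mix nuclear-encoded subunits with subunits encoded by mitochondrial DNA, whereas complex II is wholly nuclear-encoded. Pluripotent stem cells are known for strong glycolysis, and their differentiation is commonly accompanied by more mitochondrial respiration.

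Reads assigned to genes numbered 15226214 to 21893821 per library. The spread within a pair beyond counting noise, as a coefficient of variation, was 27.5% for NPC, 18.1% for Phc1-KO and 1.98% for ESC. Phc1 itself was at 40.8 and 34.6 CPM (counts per 1000000 counts of the scaled library) in NPC, 326 and 267 CPM in the libraries labelled Phc1-KO and 460 and 461 CPM in ESC. Its level in Phc1-KO was lower than in ESC (log2 fold change -0.63, adjusted p = 0.0412), but most of its RNA was still counted, and gene totals do not show which part of the gene was removed. The cell type entry of the Phc1-KO libraries reads NPC, whereas the series title calls them ESC. The summed level of 10 pluripotency markers was 115 and 89.5 CPM in NPC, 2600 and 3110 CPM in Phc1-KO and 2680 and 2690 CPM in ESC. The 9 neural progenitor markers summed to 5160 and 3000 CPM in NPC, 946 and 732 CPM in Phc1-KO and 616 and 617 CPM in ESC. By these markers the Phc1-KO libraries lay with ESC. The 10 fibroblast markers summed to 7300 and 11500 CPM in NPC, 932 and 745 CPM in Phc1-KO and 397 and 386 CPM in ESC, and none was at 0 in any library. The 6 astrocyte markers summed to 1300 and 2460 CPM in NPC, 533 CPM in each Phc1-KO library and 331 and 343 CPM in ESC. The 6 macrophage markers summed to 6.18 and 8.25 CPM in NPC, 23.0 and 17.6 CPM in Phc1-KO and 130 and 131 CPM in ESC, with all 6 called lower in NPC and 5 in Phc1-KO; 1 of them was at 0 in each NPC library. These markers move with the groups, and their part in the results was not tested. In such bulk samples, fewer cells of a type and less RNA per cell cannot be told apart.

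All 37 mitochondrially encoded genes were listed at 0 counts in every library, so the complexes are described through their nuclear-encoded part alone. Members took 0.953% and 0.794% of gene counts in NPC, 0.938% and 1.19% in Phc1-KO and 0.928% and 0.929% in ESC. The summed level of the 81 subunit genes was 9447 and 7803 CPM in NPC, 9291 and 12447 CPM in Phc1-KO and 8934 and 8969 CPM in ESC. The NPC libraries lay on either side of ESC, and both Phc1-KO libraries lay above it, Phc1-KO 2 by far more.

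**Figure D1:**
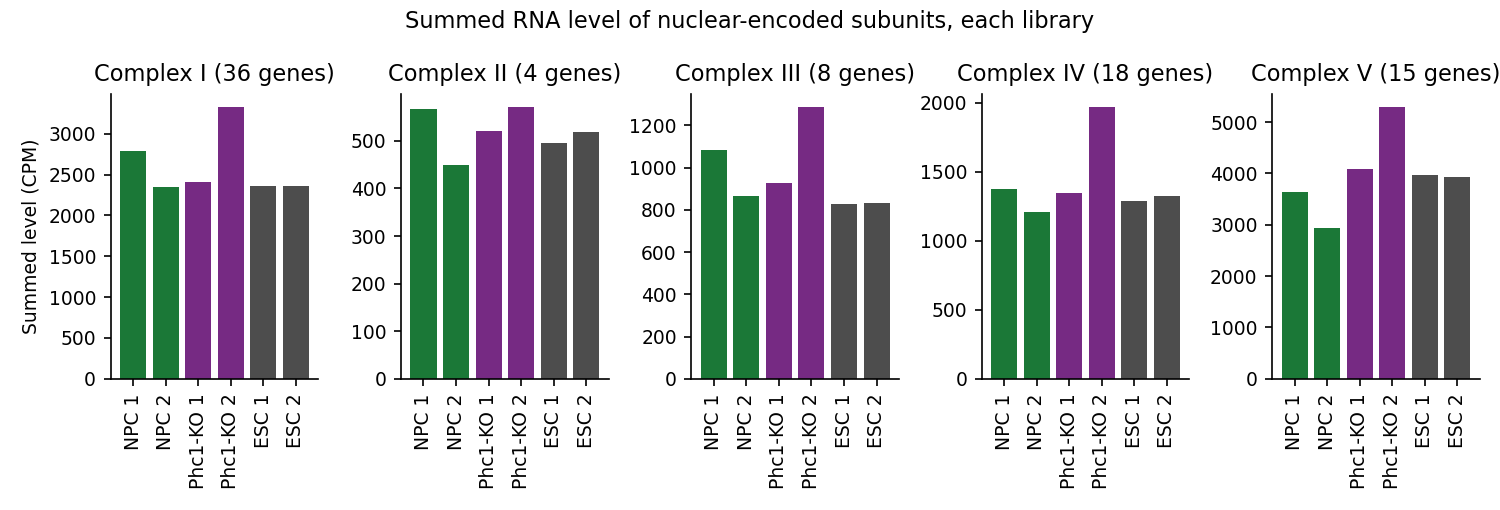
Summed level of the subunit genes of each complex (CPM, vertical axis starting at 0) in each of the 6 libraries; each bar is 1 library. Phc1-KO 2 is the highest bar in every complex, at 3326 CPM for complex I and 5294 CPM for complex V, and NPC 2 is below NPC 1 in every complex.

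Per length, levels differed widely between subunit genes. In ESC the highest mean RPKM (reads per kilobase of exon, scaled by library size) was that of Cox4i1, at 537, followed by Atp5b at 374, Ndufa4 at 361 and Atp5a1 at 358. Cox4i1 is the ubiquitous form of a regulatory subunit of complex IV. Atp5b and Atp5a1 encode the catalytic β and the α subunit of the F1 head of ATP synthase. Among the lowest were tissue-restricted isoforms such as Cox8b, at 0.253 RPKM, and Cox8c, at 0. Ndufs5 of complex I was also among them, at 0.708 RPKM, and only 57.7% of its 50-base windows are unique. Over subunits with at least 80% unique 50-base windows, the median RPKM of complex III (6 genes) was 114 and 87.8 in NPC, 91.2 and 128 in Phc1-KO and 87.2 and 92.5 in ESC. That of complex I (33 genes) was 53.4 and 42.7 in NPC, 50.5 and 64.0 in Phc1-KO and 44.6 and 44.7 in ESC. Complex IV (14 genes, rare isoforms included) was at 30.3 and 29.1 in NPC, 27.5 and 44.8 in Phc1-KO and 38.1 and 38.2 in ESC. The lower of the middle genes was Cox7a1 in ESC (33.9 RPKM in each library) and Cox6b2 in NPC (14.1 and 15.4 RPKM). This median thus moved with isoform genes. The summed level of all 18 complex IV genes was 1373 and 1211 CPM in NPC and 1287 and 1325 CPM in ESC.

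NPC against ESC asks how RNA levels differ after differentiation. Of the 80 members tested, 10 were higher and 8 lower in NPC, and 62 did not pass the threshold (edgeR, adjusted p below 0.05). Among all 17489 genes tested, 30.4% were higher and 30.9% lower. Called in either direction were 22.5% of members and 61.3% of all genes, shares given as a description with no test. The median log2 fold change was 0.06 over members and -0.01 over all genes. Of the 77 subunit genes tested, 59 lay within 0.5 of ESC on the log2 scale, and their median absolute log2 fold change was 0.24, against 0.91 over all genes. With the ESC pair counted as 1 library, 7 of the 18 calls were made (Uqcrq, Ndufs6, Ndufa7, Cox4i2, Cox5a, Cox7a1 and Atp5sl). The other 6 members (the second Ndufb8 model, Cox6a2, Cox7b2, Cox8b, Cox8c and Atp5l2) did not pass the filter on low counts.

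**Figure D2:**
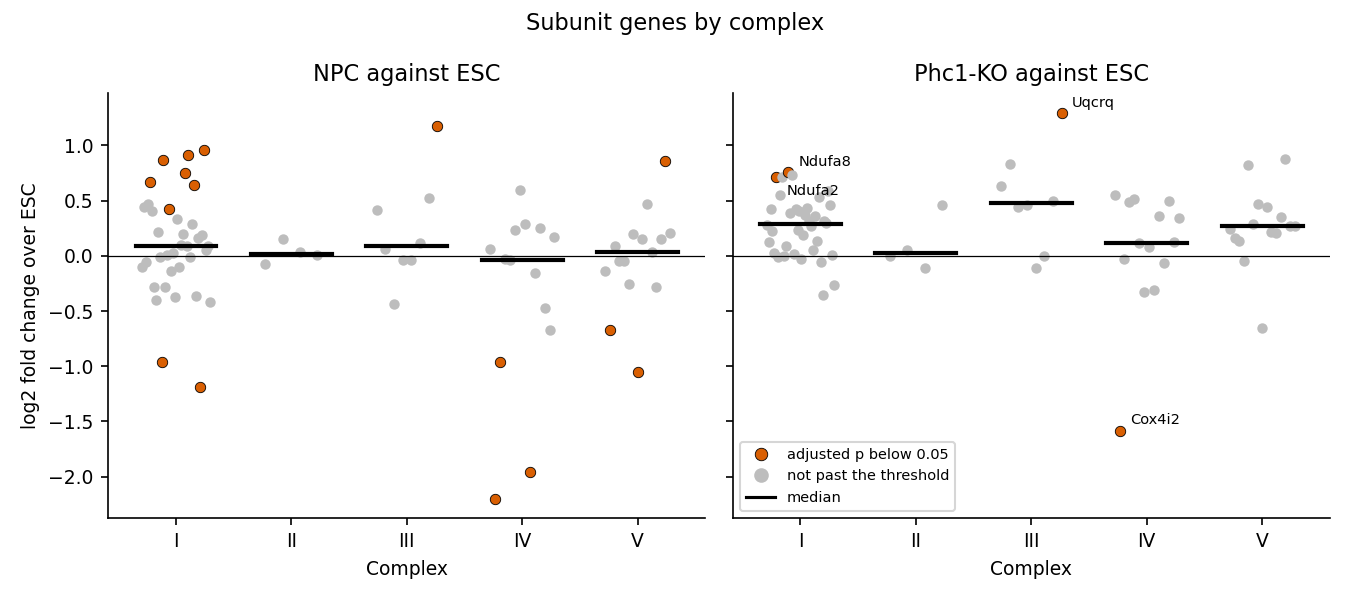
Log2 fold change over ESC (vertical axis) of each tested subunit gene, by complex, for NPC on the left and Phc1-KO on the right; filled orange points passed the threshold and bars are medians. In NPC the complex medians lie between -0.03 and 0.09, with called genes on both sides, and in Phc1-KO they lie between 0.03 and 0.48, with 4 called genes.

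Of the 36 subunit genes of complex I, 7 were higher (19.4%, under the 30.4% of all genes) and 2 lower (5.56%, under 30.9%) in NPC. Ndufs8, an iron-sulfur core subunit of the ubiquinone-reducing module, was at 79.5 and 53.3 CPM in NPC and 34.8 and 33.7 CPM in ESC. Both NPC libraries lay above ESC, NPC 1 by more, and the log2 fold change was 0.96 (SE 0.26, adjusted p = 0.0147). Ndufs3, another core subunit of that module, was at 46.0 and 42.4 CPM in NPC and 30.1 and 26.6 CPM in ESC (log2 fold change 0.64, SE 0.17, adjusted p = 0.0136). The accessory subunits Ndufc2 and Ndufa8 rose as well. Ndufc2 was at 116 and 89.2 CPM in NPC and 55.6 and 53.8 CPM in ESC (log2 fold change 0.91, SE 0.24, adjusted p = 0.0127). Ndufa8 was at 55.6 and 51.4 CPM in NPC and 29.6 and 29.1 CPM in ESC (log2 fold change 0.86, SE 0.17, adjusted p = 0.00446). Ndufb9, Ndufa13 and Ndufb11, accessory subunits of the membrane arm or its junction, had log2 fold changes of 0.75, 0.67 and 0.43. Their NPC libraries lay above those of ESC, and 30.2% of the exon bases of Ndufa13 are shared with other annotated genes.

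The members of complex I that fell were Ndufs6 and Ndufa7, accessory subunits of the matrix arm. Ndufs6 was at 19.5 and 14.6 CPM in NPC, 50.8 and 46.2 CPM in Phc1-KO and 40.1 and 37.6 CPM in ESC. The NPC libraries were the lowest of the 6 (log2 fold change -1.19, SE 0.18, adjusted p = 0.00133). Ndufa7 was at 64.2 and 58.4 CPM in NPC and 119 and 120 CPM in ESC (log2 fold change -0.96, SE 0.22, adjusted p = 0.00711). The core subunits Ndufs1 and Ndufv1 did not pass, with log2 fold changes of -0.01 and 0.06.

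None of the 4 genes of complex II, which is also an enzyme of the tricarboxylic acid (TCA) cycle, passed in NPC, and their log2 fold changes ran from -0.07 for Sdha to 0.15 for Sdhb. At an unadjusted p below 0.05, 0 of them passed, and none passed by DESeq2 or limma-voom. Of all genes, 61.3% were called in either direction by edgeR. Sdha, the flavoprotein, was at 243 and 194 CPM in NPC and 228 and 232 CPM in ESC. The NPC pair spanned the ESC pair.

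In complex III, 1 of 8 genes rose (12.5%) and none fell in NPC, against 30.4% and 30.9% of all genes. Uqcrq, a small subunit near the ubiquinone-binding site, was at 142 and 109 CPM in NPC, 119 and 153 CPM in Phc1-KO and 55.9 and 55.0 CPM in ESC. All 4 NPC and Phc1-KO libraries lay above ESC. Its log2 fold change in NPC was 1.18 (SE 0.18, adjusted p = 0.00141), the largest rise among members in that comparison. The core subunit Uqcrc1 and the Rieske protein gene Uqcrfs1 had log2 fold changes of -0.04 and 0.12 and did not pass.

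In complex IV, 0 of 14 tested genes were higher and 3 lower (21.4%) in NPC, against 30.4% and 30.9% of all genes. DESeq2 and limma-voom also gave 0 higher. At an unadjusted p below 0.05, 5 passed, against 11491 of all 17489 genes. Cox7a1, the heart and skeletal muscle form of subunit VIIa, was at 2.83 and 3.51 CPM in NPC, 7.02 and 12.9 CPM in Phc1-KO and 12.3 CPM in each ESC library. The NPC libraries were the lowest (log2 fold change -1.96, SE 0.34, adjusted p = 0.00213). Cox4i2, a lung-enriched and oxygen-responsive form of subunit IV, was low throughout, at 0.263 and 0.260 CPM in NPC, 0.524 and 0.290 CPM in Phc1-KO and 1.23 and 1.22 CPM in ESC. In NPC its log2 fold change was -2.20 (SE 0.45, adjusted p = 0.00464). Cox5a, a matrix-side subunit, was at 41.0 and 29.5 CPM in NPC, 62.3 and 72.2 CPM in Phc1-KO and 68.8 and 68.7 CPM in ESC. It fell in NPC (log2 fold change -0.96, SE 0.19, adjusted p = 0.00367), and 38.7% of its exon bases are shared with other annotated genes. The abundant Cox4i1 (log2 fold change 0.06) and Cox5b (-0.03) did not pass.

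The isoforms of complex IV were also set against each other per kilobase. Cox7a1 made up 3.37% and 5.27% of the Cox7a reads per kilobase in NPC, 9.30% and 10.7% in Phc1-KO and 14.8% and 13.9% in ESC. Its NPC shares were thus the lowest of the 6. Cox7a2, the widely expressed form, held 64.7% and 64.1% in NPC, 70.1% and 70.9% in Phc1-KO and 62.9% and 62.4% in ESC. The supercomplex factor Cox7a2l held 31.9% and 30.7% in NPC, 20.6% and 18.4% in Phc1-KO and 22.3% and 23.7% in ESC, although only 46.2% of its windows are unique. In the other isoform groups the widely expressed form dominated in all libraries. Cox4i1 held at least 99.7%, Cox6a1 at least 99.2%, Cox7b at least 99.3% and Cox8a at least 99.5%. Cox6b2, a testis form, held 3.94% and 5.90% in NPC, 4.01% and 2.04% in Phc1-KO and 3.76% and 3.77% in ESC. Cox7b2, also a testis form, had 0 counts in both NPC libraries, 6 and 9 counts in Phc1-KO and 5 and 10 counts in ESC. Against a floor of 3 counts over the NPC pair, it was at least 4.81-fold lower in NPC, a bound that leaves out the counting error in ESC.

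In complex V, 1 of 15 genes was higher (6.67%) and 2 lower (13.3%) in NPC, under the 30.4% and 30.9% of all genes. Atp5b was at 1158 and 838 CPM in NPC, 1666 and 1887 CPM in Phc1-KO and 1603 and 1572 CPM in ESC. It fell in NPC (log2 fold change -0.67, SE 0.18, adjusted p = 0.0146), whereas its partner in the F1 head, Atp5a1, had a log2 fold change of -0.14 and did not pass (1096 and 943 CPM in NPC, 1137 and 1103 CPM in ESC). The difference between these 2 changes was not tested. Atp5sl, named like a subunit but now known as a factor of complex I assembly, was at 6.77 and 5.13 CPM in NPC and 23.1 and 22.5 CPM in ESC (log2 fold change -1.94, SE 0.20, adjusted p = 0.000256). Atp5l, subunit g of the membrane part, was higher (log2 fold change 0.86, adjusted p = 0.0334), but only 10.6% of its 50-base windows are unique in mm9.

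Atp5g1, Atp5g2 and Atp5g3 encode the same mature subunit c of the proton-carrying ring. Atp5g3 held 94.8% and 95.2% of their counted reads per kilobase in NPC, 95.6% and 94.3% in Phc1-KO and 93.3% and 92.6% in ESC. The share of unique 50-base windows was 99.6% for Atp5g3, 71.8% for Atp5g1 and 0% for Atp5g2. Alignments that were not unique stood outside the gene counts, so these shares do not show how much RNA each gene supplied. Atp5g2 was at 1.18 and 0.909 CPM in NPC, 1.20 and 1.55 CPM in Phc1-KO and 1.97 and 2.37 CPM in ESC, lower in NPC by the test (log2 fold change -1.05, SE 0.33, adjusted p = 0.0289). None of its 50-base windows is unique in mm9, so its counts cannot be assigned to it with certainty. The window below crosses a coding splice junction of Atp5g2 (chr15:102495654-102496218, minus strand, mm9) and is shown because the same 50 bases stand unspliced, base for base, at chr7:24732095-24732144 and chr17:5816484-5816533. Capitals mark the bases of the downstream exon.
Atp5g2: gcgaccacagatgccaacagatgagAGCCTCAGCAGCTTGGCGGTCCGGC

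**Figure D3:**
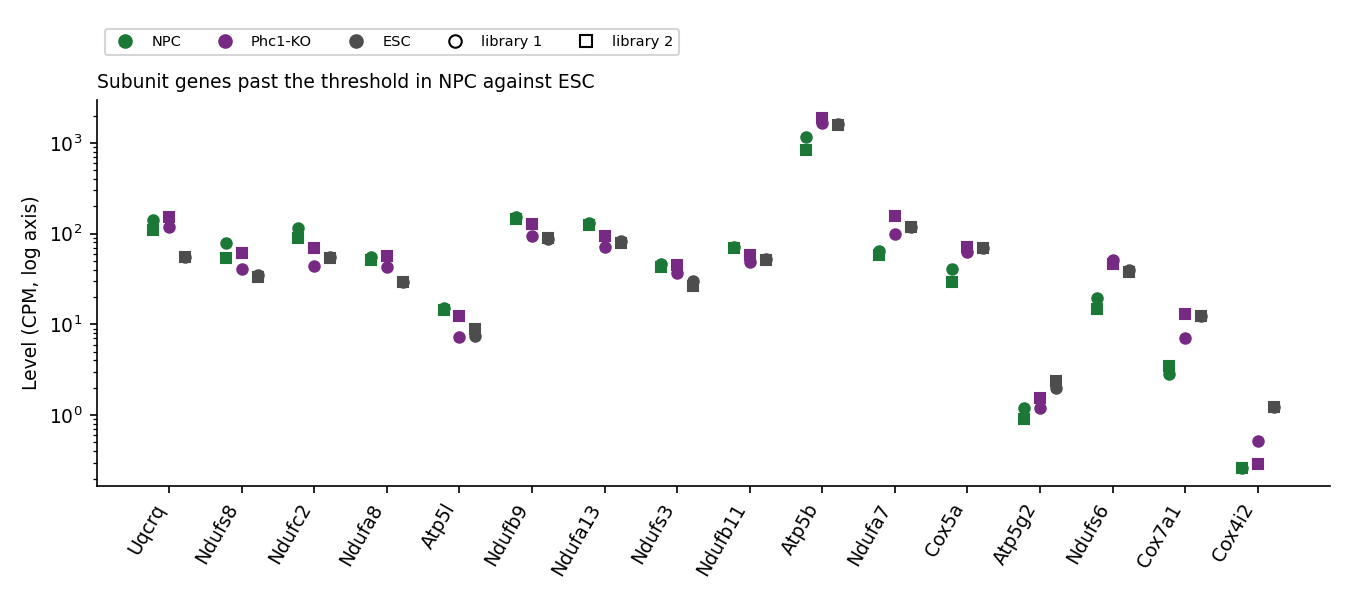
Level (CPM, log axis) of the 16 subunit genes past the threshold in NPC against ESC, ordered from the largest rise to the largest fall, with NPC, Phc1-KO and ESC libraries side by side; circles are library 1 and squares library 2. Uqcrq stands above ESC in both NPC and Phc1-KO, and Cox4i2 stands below ESC in both; for Ndufs6 the NPC points are the lowest and the Phc1-KO points the highest.

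The libraries labelled Phc1-KO were compared with ESC. Phc1 encodes a Polyhomeotic subunit of Polycomb repressive complex 1, and its RNA was lower but still present in these libraries. Of 80 members tested, 4 were higher and 1 lower, and 75 did not pass. Among all genes tested, 4.91% were higher and 5.75% lower, and the members' 5% and 1.25% stand close to or under those shares. Over all 17489 genes, 5126 were below an unadjusted p of 0.05. At an unadjusted p below 0.05, 23 members passed, and with the ESC pair counted as 1 library 0 were called. The log2 fold change was above 0 for 62 of 80 members, with a median of 0.27 (0.00 over all genes). By complex the median was 0.29 for complex I, 0.03 for complex II, 0.48 for complex III, 0.12 for complex IV and 0.27 for complex V.

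The subunit genes that rose in Phc1-KO were Uqcrq, Ndufa8 and Ndufa2. Uqcrq, whose values stand above, reached 1.30 on the log2 scale (SE 0.18, adjusted p = 0.0104). Ndufa8 was at 42.5 and 56.7 CPM in Phc1-KO and 29.6 and 29.1 CPM in ESC (log2 fold change 0.76, SE 0.17, adjusted p = 0.0398). Ndufa2, an accessory subunit of the matrix arm, was at 77.4 and 102 CPM in Phc1-KO and 54.8 and 54.3 CPM in ESC (log2 fold change 0.72, SE 0.16, adjusted p = 0.0390). Both Phc1-KO libraries lay above ESC for each gene. Cox4i2 fell by 1.58 on the log2 scale (SE 0.40, adjusted p = 0.0495), close to the threshold. The largest rise among members was that of Cox4nb, which is no respiratory subunit. It was at 134 and 178 CPM in Phc1-KO and 57.6 and 55.5 CPM in ESC (log2 fold change 1.46, SE 0.16, adjusted p = 0.00597), and at 82.1 and 81.9 CPM in NPC (0.54, SE 0.16, adjusted p = 0.0238). Its start lies 178 bases from that of Cox4i1, which was at 439 and 629 CPM in Phc1-KO and 361 and 369 CPM in ESC (log2 fold change 0.55, adjusted p = 0.0952). Cox7a1 did not pass (log2 fold change -0.31, adjusted p = 0.549). NPC and Phc1-KO were set against the same ESC libraries, so the 2 sets of fold changes share their reference.

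The shift of the members in Phc1-KO rested on 1 library. Phc1-KO 2 was above Phc1-KO 1 in 72 of 80 members, with a median log2 ratio of 0.47, whereas over all genes 51.6% were higher in Phc1-KO 2 and the median was 0.02. Without Phc1-KO 1 the members' median log2 fold change over ESC was 0.51 and 70 of 80 were above 0. Without Phc1-KO 2 it was -0.01 and 37 of 80 were above 0, and 1 member (Cox4nb) was called higher. Without Phc1-KO 1, 11 were. In the NPC pair, NPC 2 was above NPC 1 in 7 of 80 members, with a median log2 ratio of -0.26, and the members' median over ESC was -0.10 without NPC 1 and 0.15 without NPC 2. In the ESC pair 41 of 80 were higher in ESC 2 and the median was 0.00. Phc1-KO 1 had 1.08 reads outside genes per read in genes and Phc1-KO 2 had 0.661. Exon length moved weakly with the difference in the Phc1-KO pair, as a description over genes of the same 2 libraries (Spearman -0.27 over 80 members, -0.26 over all genes). The part of either in the difference was not tested.

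**Figure D4:**
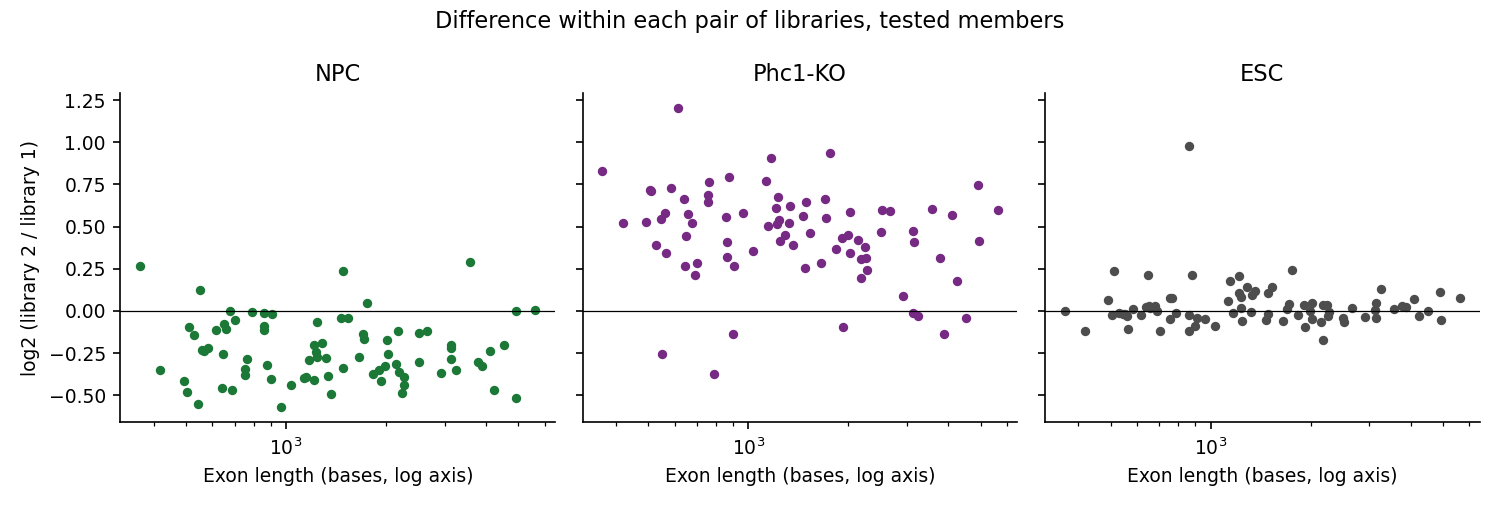
Log2 ratio of library 2 to library 1 (vertical axis) against exon length (bases, log axis) for the 80 tested members, with NPC, Phc1-KO and ESC from left to right; each point is a gene. Most Phc1-KO points lie above 0 (72 of 80), few NPC points do (7 of 80), and ESC points lie around 0, apart from Ndufs5 at under 1 CPM.

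Lists of genes around the respiratory chain were set beside the subunits. Among 18 regulators of mitochondrial biogenesis and mitochondrial DNA, 4 rose (22.2%) and 11 fell (61.1%) in NPC, against 30.4% and 30.9% of all genes. Their median log2 fold change was -0.56. Ppargc1a, a coactivator of mitochondrial genes, was at 43.5 and 30.6 CPM in NPC (661 and 472 counts), against 0.185 and 0.182 CPM in ESC (3 counts each) and 0 and 1 counts in Phc1-KO. It rose in NPC (log2 fold change 7.60, SE 0.41, adjusted p = 2.09e-05). Over each pair this was 1133 counts in NPC and 6 in ESC, a ratio of 202 with a 95% exact counting interval of 92.3 to 550, which covers counting error only. Myc, Ppargc1b and the nuclear receptor gene Esrra also rose, by log2 fold changes of 2.14, 1.24 and 1.09. Other genes of transcription factors, or their subunits, that act at the promoters of many respiratory genes fell, unlike Esrra and Myc. The falls were 0.80 for Nrf1, 0.80 for Gabpa, 0.52 for Gabpb1, 0.55 for Gabpb2 and 0.39 for Yy1 on the log2 scale. The coactivator Pprc1 fell by 1.28. Among genes that copy or transcribe mitochondrial DNA, Tfam fell by 1.09, Tfb1m by 1.39, Polrmt by 0.87, Peo1 (the helicase Twinkle) by 0.73 and Ssbp1 by 1.16. Tfb2m, Polg and Polg2 did not pass, with log2 fold changes of -0.57, 0.29 and -0.51.

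Of 75 mitochondrial ribosome genes, 5 rose (6.67%) and 26 fell (34.7%) in NPC, with a median log2 fold change of -0.32; among all genes 30.4% were higher and 30.9% lower. Mrpl15 had the largest fall (-1.53), followed by Mrpl42, at 17.9 and 14.5 CPM in NPC and 47.9 and 43.9 CPM in ESC, and Mrpl12 and Mrps6 had the largest rises (1.15 and 1.13). Of 14 genes of pyruvate entry and lactate, 3 rose (21.4%) and 6 fell (42.9%). Pdk1, a kinase that shuts off pyruvate dehydrogenase, was at 36.2 and 49.5 CPM in NPC and 460 and 465 CPM in ESC (log2 fold change -3.43, SE 0.22, adjusted p = 3.64e-05). Pdk4 had a log2 fold change of -3.15. The mitochondrial pyruvate carrier genes Brp44 and Brp44l rose, by 1.72 and 1.56. Lactate dehydrogenase A (Ldha) was at 222 and 200 CPM in NPC and 1440 and 1450 CPM in ESC, with -2.78 on the log2 scale. Of 16 TCA cycle genes 4 rose (25%) and none fell, against 30.4% and 30.9% of all genes. Their median was 0.30. The largest rises were those of Idh2 (0.89) and Pcx (0.73). At an unadjusted p below 0.05, 6 passed, against 11491 of all 17489 genes.

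Of 32 assembly factors tested, 4 rose (12.5%) and 6 fell (18.8%) in NPC, against 30.4% and 30.9% of all genes. Lyrm7, which helps to insert the Rieske protein, and Tmem70, a factor for ATP synthase, had log2 fold changes of 1.16 and 1.16. Cox17, a copper chaperone of complex IV, and Nubpl, which supplies iron-sulfur clusters to complex I, had changes of -1.41 and -1.38. Of 13 carrier and channel genes, 1 rose (7.69%) and 7 fell (53.8%). Slc25a4, an ADP/ATP carrier, rose by 1.36. Among 7 subunit and electron carrier genes whose names do not follow the pattern, Ndufab1 rose (0.74, adjusted p = 0.00661). Cyct, the testis cytochrome c, had 0 counts in both NPC libraries and 38 and 40 in ESC. Against a floor of 3 counts over the NPC pair it was at least 25-fold lower, a bound with the counting error in ESC left out. Cyc1, Cycs, Usmg5, 2010107E04Rik and Atpif1 did not pass, with log2 fold changes from -0.59 (Cycs) to 0.32 (Usmg5).

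In Phc1-KO, 5 of the 75 mitochondrial ribosome genes rose (6.67%) and none fell, against 4.91% and 5.75% of all genes. Their median log2 fold change was 0.34 and 70 of 75 were above 0. Here too Phc1-KO 2 was above Phc1-KO 1, in 70 of 75 genes. The median log2 ratio to the ESC mean was 0.11 for Phc1-KO 1, with 50 genes above 0, and 0.50 for Phc1-KO 2, with 69 genes above 0. Mrpl12 (1.92) and Mrps34 (1.29) changed most. Of the 18 biogenesis genes, Ssbp1 (0.59) and Myc (1.04) rose (11.1%, against 4.91% of all genes) and none fell (against 5.75%). Of 14 pyruvate and lactate genes, Pdk4 (-1.85), Ldhb (-1.73) and Pdk3 (-0.62) fell (21.4%). Of 13 carrier and channel genes, Ucp2 (-1.04) and Ckmt1 (-1.10) fell (15.4%). Among all genes 5.75% were lower. None of either list rose, against 4.91% of all genes. No assembly factor, TCA cycle gene or gene of the 7 outside the pattern passed by edgeR. At an unadjusted p below 0.05, 5 of 32, 2 of 16 and 2 of 7 did, against 5126 of all 17489 genes.

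**Figure D5:**
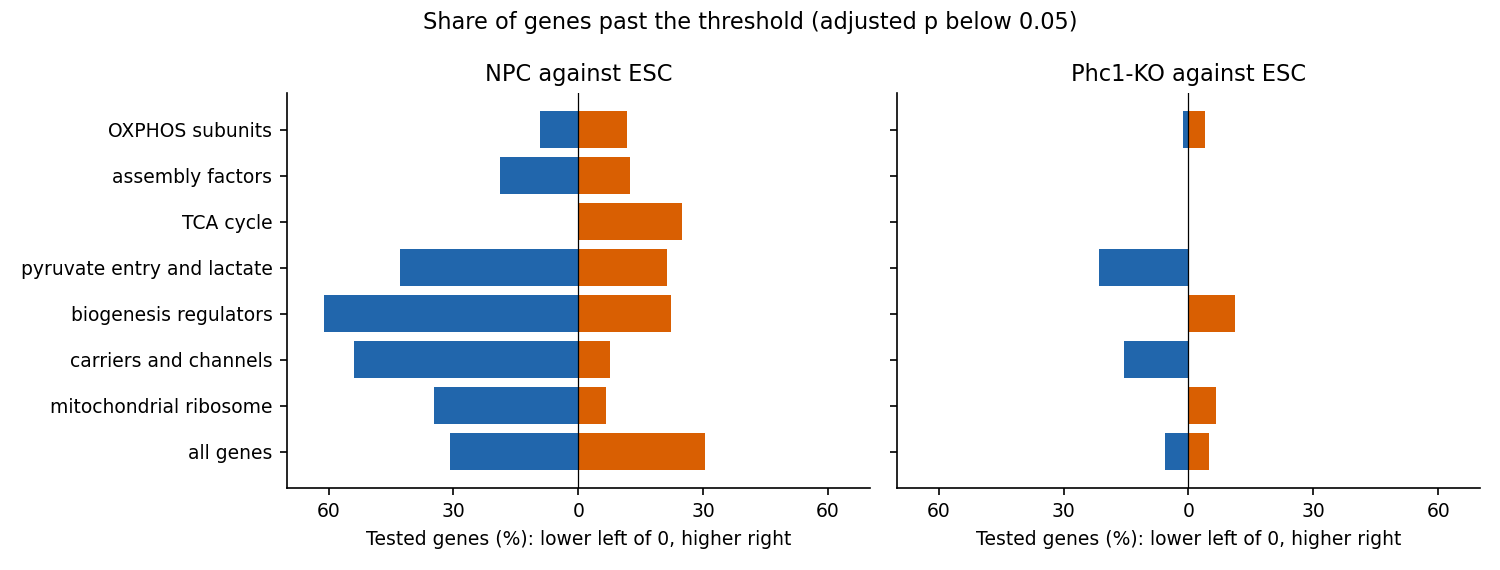
Share of the tested genes of each set (%, horizontal axis) that were lower (left of 0, blue) or higher (right of 0, orange) than in ESC at adjusted p below 0.05, with NPC on the left and Phc1-KO on the right. In NPC the subunits have 11.7% higher and 9.09% lower and biogenesis regulators 22.2% and 61.1%, against 30.4% and 30.9% of all genes. In Phc1-KO the subunits have 3.9% higher and 1.3% lower, against 4.91% and 5.75% of all genes.

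Subunit genes were short and often shared a start region with a neighbour. The median exon length was 1231 bases over subunit genes and 2739 over protein-coding genes. A neighbour that starts within 1000 bases on the opposite strand was annotated for 20 of 81 subunit genes (24.7%), against 7.15% of protein-coding genes. Ndufa7 and the ribosomal protein gene Rps28, with starts 29 bases apart, had log2 fold changes in NPC of -0.96 and -0.90 (adjusted p = 0.0202 for Rps28). Ndufb9 and Tatdn1, with starts 80 bases apart, had 0.75 and 0.62 (adjusted p = 0.0158 for Tatdn1). These were the only pairs in which both genes passed in NPC. In other pairs only the neighbour passed: Ndufs1 was at -0.01 and Eef1b2, whose start is 3 bases away, fell by 0.76 (adjusted p = 0.00246). The same held for Ndufa1 beside Rnf113a1 (-1.48), Ndufb3 beside Fam126b (-0.46) and Sdha beside Ccdc127 (0.56). It also held for Uqcrh beside Lrrc41 (0.97) and Cox4i1 beside Cox4nb (0.54).

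RefSeq promoter windows (GRCm38.p6, from 250 bases before to 50 bases after the start) were matched for 66 of the 81 subunit genes. They were searched on both strands for CCGGAAG (the GABPA or ETS motif), AAGATGG (the YY1 motif) and GCGCATG (part of the NRF1 motif). CCGGAAG was found for 24.2% of these genes against 12.9% of all 17492 protein-coding genes, AAGATGG for 15.2% against 7.18%, and GCGCATG for 19.7% against 5.40%. Overlaps between motifs were allowed, and a match is a description of letters, not of binding. The 250 bases before the start are shown for complex I genes that rose in NPC with and without a match and for 1 that fell, with matches on either strand in capitals. They are Ndufa8 (chr2:36049339-36049588, minus strand, with the NRF1 letters), Ndufs3 (chr2:90904722-90904971, minus strand, with the GABPA letters), Ndufc2 (chr7:97399753-97400002, plus strand, also a gene that rose, with none of the 3 motifs) and Ndufs6 (chr13:73328483-73328732, minus strand, which fell). Ndufs6 has none of the motifs in this stretch, but its whole window holds the YY1 letters, and Ndufs8, which rose, likewise has a match (GABPA) only in its whole window. No relation between motifs and the direction of change was tested.
Ndufa8: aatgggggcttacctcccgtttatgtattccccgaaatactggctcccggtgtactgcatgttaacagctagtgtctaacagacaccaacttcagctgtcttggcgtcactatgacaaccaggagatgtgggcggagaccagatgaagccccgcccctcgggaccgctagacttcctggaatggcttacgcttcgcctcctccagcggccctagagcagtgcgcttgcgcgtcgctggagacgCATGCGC
Ndufs3: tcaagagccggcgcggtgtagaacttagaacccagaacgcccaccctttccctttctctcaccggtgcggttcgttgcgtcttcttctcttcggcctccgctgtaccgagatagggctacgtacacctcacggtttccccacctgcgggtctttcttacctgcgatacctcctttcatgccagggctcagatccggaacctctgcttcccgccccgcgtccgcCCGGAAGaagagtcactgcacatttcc
Ndufc2: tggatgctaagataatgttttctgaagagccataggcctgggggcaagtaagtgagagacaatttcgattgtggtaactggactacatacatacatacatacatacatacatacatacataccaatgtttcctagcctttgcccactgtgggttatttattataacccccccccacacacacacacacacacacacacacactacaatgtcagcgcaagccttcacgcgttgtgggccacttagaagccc
Ndufs6: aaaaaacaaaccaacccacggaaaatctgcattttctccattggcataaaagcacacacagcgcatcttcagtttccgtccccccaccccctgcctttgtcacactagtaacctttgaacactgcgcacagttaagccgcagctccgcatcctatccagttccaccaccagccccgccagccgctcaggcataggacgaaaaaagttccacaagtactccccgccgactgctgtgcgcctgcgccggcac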

How the data were processed

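RNA was measured in 2 libraries each of NPC, Phc1-KO and ESC. Per the labels' protocols, ribosomal RNA was removed (Ribo-Zero Gold) and TruSeq libraries were read as single 50-base reads. The deposited files hold raw counts for Ensembl genes, which the authors made with STAR and HTSeq on mm9, per the submitters' processing notes. Tool versions and the annotation were not given in the sources used here. Nor was the setting for strand, so reads of overlapping or antisense genes cannot be told apart. Closing tallies of unassigned reads were left out. The tally of alignments that were not unique was 1.11 to 1.70 per gene count. The members and gene lists were chosen with earlier results of these data known.

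GENCODE M1 (mm9) named 37205 of 37620 genes. All 6 libraries were fitted with edgeR 4.0.16 (quasi-likelihood F test, TMM, filterByExpr with minimum count 10 and total 15, 3 residual degrees of freedom), in R 4.3.3. Benjamini-Hochberg adjustment ran over the 17489 genes tested, with a threshold of 0.05. CPM use TMM-scaled library sizes, and RPKM divide them by exon length. Uniqueness is the share of a gene's 50-base transcript windows found at no other place in mm9. A window inside an exon had to occur once, and an unspliced copy of a window over a splice junction not at all. Counts carry no molecular identifiers, so floors cover counting error in the NPC pair only. Named genes were the core subunits, the isoform groups, per complex the 3 largest rises and falls that passed without overlap, members that failed the filter, the 2 largest changes each way per other list, and all biogenesis genes and subunits outside the naming rule. Results for 2 genes that met this rule or a list's count are not reported here. Other genes were named once their values were known. Alternatives were DESeq2 1.42.0, limma-voom (limma 3.58.1), other scalings and filters, fits of 2 groups, a replicate block, the ESC pair as 1 library, unique members only, and each library left out.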

Additional observations from a re-analysis of the deposited data

How the results depend on the processing

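In NPC the 10 higher and 8 lower members stayed within 1.5 times of those counts under DESeq2, limma-voom, the other scalings and filters, fits of 2 groups and the limit to unique members. With the ESC pair as 1 library, 1 was higher and 6 lower, and all 7 were among those reported. Leaving out 1 library gave 1 to 15 higher (1 without ESC 2, 2 without ESC 1) and 6 to 11 lower. In Phc1-KO, 4 higher and 1 lower became 10 and 0 with DESeq2, 2 and 0 without a filter, 10 and 1 with the 2 groups alone, and 0 and 0 with the ESC pair as 1 library. The fall was also lost (0) with limma-voom and with DESeq2 size factors. Leaving out 1 library gave 0 to 11 higher (0 without either ESC library, 9 without either NPC library, 11 without Phc1-KO 1, 1 without Phc1-KO 2) and 0 to 1 lower. Leaving out an ESC library leaves that group with 1 library, assumed to vary like the others. With the replicate block, 9 members were higher and 8 lower in NPC, and 2 and 0 in Phc1-KO; same-numbered libraries did not deviate together (correlations 0.02, 0.04 and -0.03), so the numbers were not taken as pairs. The cause of these changes was not tested. Upper-quartile scaling moved the median of all genes to -0.11 in NPC, and 34 of 80 members were then above 0, against 46.

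The log2 fold changes that changed sign had not passed the threshold. In NPC, Ndufv1 was -0.04, Sdhc -0.07 and Cox4i1 -0.03 with upper-quartile scaling, and Sdhc -0.01 with total-count scaling and with the ESC pair as 1 library. In Phc1-KO, Sdha was 0.03, Uqcrfs1 0.03 and Cox5a 0.01 with DESeq2, Sdha and Uqcrfs1 0.02 with its size factors, and Sdhb -0.03 with total-count scaling. With 1 library left out, log2 fold changes in NPC ran from -0.17 to 0.14 for Ndufs1, -0.01 to 0.13 for Ndufv1, -0.24 to 0.09 for Sdha, -0.11 to 0.38 for Sdhb, -0.16 to 0.20 for Sdhc, -0.18 to 0.09 for Uqcrc1, -0.15 to 0.35 for Uqcrfs1, -0.15 to 0.09 for Cox5b, -0.11 to 0.01 for Cox6a1, -0.02 to 0.46 for Cox6b1, -0.34 to 0.02 for Cox7a2, -0.13 to 0.42 for Cox8a, -0.09 to 0.45 for Atp5g1 and -0.04 to 0.32 for Atp5g3. In Phc1-KO they ran from -0.07 to 0.06 for Sdha, -0.14 to 0.24 for Sdhb, -0.21 to 0.18 for Uqcrfs1, -0.14 to 0.07 for Cox5a, -0.29 to 0.44 for Cox6b1, -0.81 to 0.07 for Cox7a1, -0.02 to 0.67 for Cox7a2, -0.34 to 0.17 for Cox7a2l and -0.02 to 0.46 for Atp5a1.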
